A study of Mus musculus with 6 samples.

Results

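Immediate early genes are switched on within minutes of neuronal firing or growth factor signalling, without new protein synthesis. Calcium entry and the MAP kinase cascade activate factors already bound at their promoters, among them CREB and the serum response factor. The products are mostly transcription factors, which act on later genes, together with synaptic proteins and phosphatases that limit the signal. In the auditory brainstem, as elsewhere in the brain, their transcripts are widely used as marks of recent activity.

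The 10 genes described here are Arc, Fos, Fosb, Junb, Egr1, Egr3, Nr4a1, Npas4, Dusp1 and Ier2, out of 18193 genes with a probe set of their own on the array. They were chosen by name with earlier results of these data known, as were the gene lists set beside them below. Each of the 10 is represented by the probe set of highest mean that the platform annotation gives to that gene alone. Together they have 11 probe sets, with 2 for Egr3 and 1 for each of the others.

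The series holds 6 Affymetrix Mouse 430 2.0 arrays, covering 3 nuclei at 2 ages with 1 array apiece. The ventral cochlear nucleus (VCN) is the first relay of the auditory nerve. The lateral superior olive (LSO) compares sound level between the ears, and the MNTB, the medial nucleus of the trapezoid body, sends it glycinergic inhibition. All animals were male mice of the strain C57BL/6J with no treatment. Tissue of 6 mice at postnatal day 3 (P3) or of 3 mice at postnatal day 14 (P14) was pooled for each array. P3 lies before the onset of hearing in mice and P14 shortly after it. Fresh slices were cut before the nuclei were taken out, so any transcripts made during slicing could not be told apart from those present in the animal. Whether any were made was not tested. The RNA was amplified before hybridisation.

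No combination of nucleus and age was repeated. The spread behind each test therefore starts from how far the age difference varied between the 3 nuclei. It was moderated towards the spread of tested genes of like intensity, with 3.95 prior against 2 residual degrees of freedom. A printed standard error can thus be narrower or wider than the gene's own variation between nuclei. The p-values refer to repetition over nuclei, not over animals. Pool size went with age and cannot be told apart from it. The array medians lay between 6.27 and 6.31 log2 units. The 3' minus 5' difference of the Gapdh control sets, which gauges RNA integrity and amplification, ran from 1.21 to 1.41 at P3 and from 1.06 to 1.11 at P14, and its part in the age differences was not tested. The tissue labels were set against marker genes. The glycine transporter gene Slc6a5 had values in VCN, LSO and MNTB of 10.89, 11.30 and 12.50 at P3 and of 10.74, 12.22 and 13.02 at P14. Neuronal markers averaged 11.92 to 12.16 at P3 and 11.43 to 11.88 at P14. The arrays of the VCN stood apart in the average of cerebellar granule cell markers, which was 8.10 and 8.70 there and 5.64 to 6.37 on the other 4. The single markers differed. At P3 Zic1, Neurod1, Pax6 and Barhl1 were highest in VCN, while Gabra6 was at 3.61, 3.60 and 3.41 in VCN, LSO and MNTB. Between the ages in VCN Gabra6 was higher by 4.37 and Cbln3 by 3.27 at P14, while Zic1, Neurod1, Pax6 and Barhl1 were lower. On the VCN array of P14 alone the choroid plexus markers averaged 7.28, against 4.86 to 5.17 on the other 5. Most of this came from Ttr, at 12.58 there and 6.61 to 6.93 on the other 5. Folr1, Kcne2 and Clic6, with means too low to be tested, were at 6.26, 4.8 and 5.48 there, each its highest value. The small number of arrays limits the precision of every value. In bulk tissue fewer cells of a type and less RNA per cell cannot be told apart.

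Promoter stretches of assembly GRCm38.p6 are shown for the 6 members with an entry in the RefSeq promoter table (Fosb, Junb, Fos, Nr4a1, Dusp1 and Npas4). They hold the cAMP response element or its short form, to which CREB, a factor of calcium and cAMP signalling, can bind. Binding to these stretches was not measured. Each stretch has 45 bases, is written 5′ to 3′ on the strand of the gene, and lies wholly upstream of the annotated start. Capitals mark the short form TGACG or its reverse complement, the full element TGACGTCA, which contains it, and the EGR site GCGGGGGCG, to which the proteins of the Egr genes bind.
Fosb: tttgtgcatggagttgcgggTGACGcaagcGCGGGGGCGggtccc
Junb: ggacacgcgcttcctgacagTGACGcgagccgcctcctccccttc
Fos: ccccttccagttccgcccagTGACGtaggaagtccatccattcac
Nr4a1: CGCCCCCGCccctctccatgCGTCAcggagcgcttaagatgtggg
Dusp1: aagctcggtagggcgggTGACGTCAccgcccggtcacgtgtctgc
Npas4: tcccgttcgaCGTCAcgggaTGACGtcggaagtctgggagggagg
They lie at chr7:19310081-19310125 on the minus strand for Fosb, chr8:84978830-84978874 (minus) for Junb, chr12:85473804-85473848 (plus) for Fos, chr15:101266786-101266830 (plus) for Nr4a1, chr17:26508588-26508632 (minus) for Dusp1 and chr19:4990116-4990160 (minus) for Npas4.

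The short form TGACG was found on either strand in all 6 windows of 300 bases (250 before the start and 50 from it), and in 20.8% of the 32851 promoters of the table. Nr4a1 had 4 such matches, Dusp1 3, Fos and Npas4 2 each, and Fosb and Junb 1 each. The full palindrome TGACGTCA was present only in the window of Dusp1, at bases -143 to -136, where it accounts for 2 of the 3 short matches. It occurs in 1.79% of all promoters. The EGR site GCGGGGGCG was found in the windows of Fosb and Nr4a1 and in 2.91% of all promoters. The letters of a TATA box (TATAAA) were found in 13.6% of all promoters and in the windows of Fos and Junb. In Fos they lie at bases -33 to -28, and in Junb at bases 0 to 5, on the annotated start itself. The CArG box of the serum response factor was in none of the 6 windows and in 1.63% of all promoters, which says only that these letters are not in those 300 bases. All motifs were searched on both strands, and a match is a description of the sequence.

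**Figure D1:**
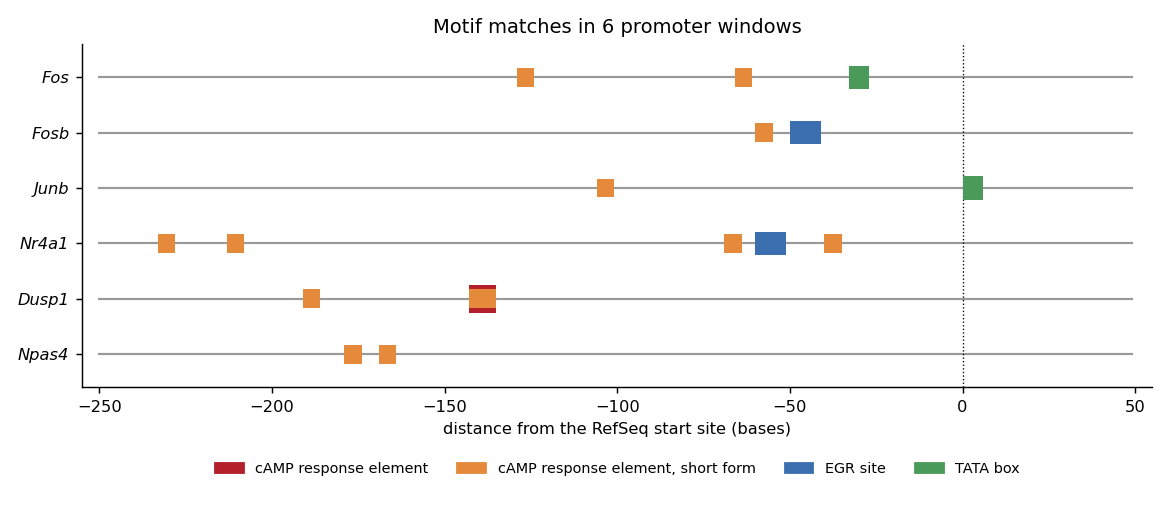
Matches of 4 motifs in the promoter windows of 6 immediate early genes, drawn to scale against the distance from the RefSeq start site in bases (dotted line at the start); each grey line is 1 window of 300 bases. The short form of the cAMP response element (orange) appears in all 6 windows, and the full element (red) only in that of Dusp1.

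The comparison of P14 with P3 asks whether the levels of these genes differed before and after the onset of hearing. Arc and Dusp1 were higher at P14, no tested member was called lower, and none of the 4 transcription factor genes tested (Fos, Junb, Egr1 and Egr3) passed. Of the 7 members whose mean passed the filter on low values (5.57 log2 units, the 40th percentile of all probe sets), 2 passed the test at an adjusted p under 0.05. Over all 12958 tested genes 41% passed, 23.4% being higher and 17.7% lower at P14, so the 2 higher among 7 are near the share of all genes. The median difference of the 7 was 0.25 log2 units, against 0.032 over all tested genes. This median depended on the filter, and with no filter on low values it was 0.06 over all 10 members. Of the 3 members not tested, Nr4a1 had a mean of 5.53, just under the filter, and Junb, at 5.63, was just above it. Fosb and Npas4 lay lower.

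**Figure D2:**
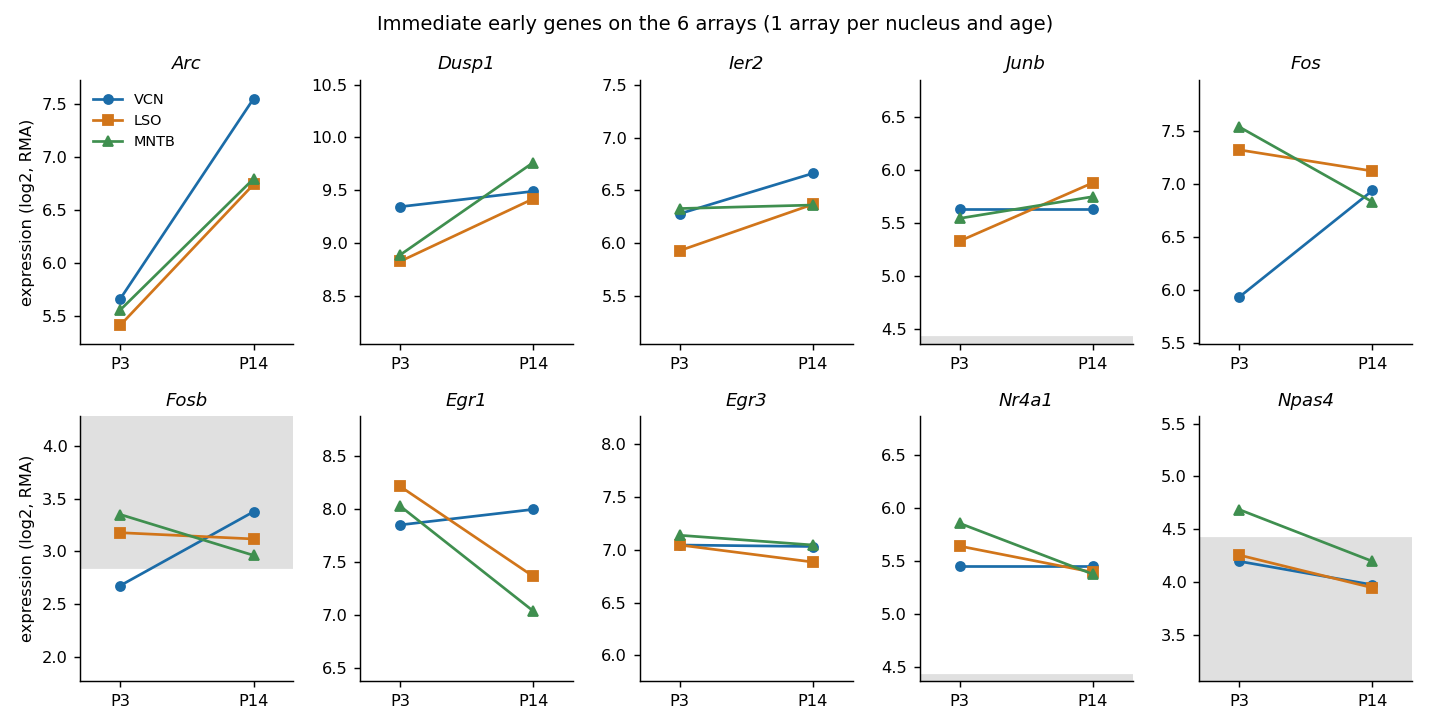
Deposited log2 values of the 10 genes at P3 and P14, with 1 line per nucleus (VCN circles, LSO squares, MNTB triangles); every panel spans 2.5 log2 units, and grey marks the range of 3 unspiked control probe sets (2.84 to 4.42). Arc climbs in every nucleus, the lines of Fos, Egr1 and Nr4a1 split by nucleus, and Fosb stays within or below the control range.

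Arc encodes a cytoskeleton-associated protein of dendrites that takes part in the removal of AMPA receptors from synapses. In the order VCN, LSO and MNTB, which is kept below, its values were 5.66, 5.41 and 5.55 at P3. At P14 they were 7.55, 6.74 and 6.79. All 3 values of P14 lay above all 3 of P3, and the highest was that of VCN. Within the nuclei the differences were 1.89, 1.33 and 1.24. Fitted over the nuclei Arc rose by 1.49 ± 0.17 log2 units (standard error, 3 nuclei, with 95% interval 1.08 to 1.90 and adjusted p = 0.00163). Of the 12958 tested genes 374 rose at least as much. The mean of Arc at P3 was 5.54, just below the filter on low values (5.57). Arc passed the filter on its mean over both ages (6.28), through the values of P14 (mean 7.03). With no filter on low values the fitted difference was also 1.49 (adjusted p = 0.00301). The VCN array of P14, where Arc was highest, was also that with the highest granule cell and choroid plexus markers (8.70 and 7.28). The part of granule cell and choroid plexus tissue in the values of Arc was not tested. Leaving out either array of a nucleus takes that nucleus out of the age difference. Without either VCN array the fit thus rested on LSO and MNTB, with a difference of 1.28 for Arc (adjusted p = 0.00223 and 0.00235).

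Dusp1 encodes a nuclear phosphatase that inactivates MAP kinases. Its values were 9.34, 8.83 and 8.89 at P3, and 9.49, 9.42 and 9.76 at P14. The ages did not overlap, but the VCN value of P3 (9.34) lay close below the LSO value of P14 (9.42). Within the nuclei Dusp1 differed by 0.15, 0.59 and 0.87. Over the nuclei Dusp1 rose by 0.54 ± 0.15 (95% interval 0.16 to 0.91, adjusted p = 0.0347). This call was lost without either LSO array (0.51, adjusted p = 0.130 and 0.129) and without either MNTB array (0.37, adjusted p = 0.166 and 0.170). It was also lost with the arrays centred on the medians of the tested genes (0.44, adjusted p = 0.0659).

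Dusp1 is expressed by many cell types, and the marker lists of several of them moved with age. Over all tested genes 23.4% rose and 17.7% fell. Of 9 endothelial and pericyte markers 7 rose and none fell, with means of 7.85 to 8.18 at P3 and 8.94 to 9.05 at P14. Of 7 microglial markers 4 rose, with means of 7.57 to 8.15 and 8.45 to 8.79. Of 5 meningeal markers the 4 tested all rose, and Lum was under the filter. The means of the 5 were 5.71 to 5.84 and 7.61 to 8.06. All 5 myelin markers rose, from means of 8.45 to 10.14 to means of 12.36 to 12.57. Of 6 astrocyte markers 3 rose and 2 fell, with means of 11.46 to 11.74 at P3 and 11.72 to 11.92 at P14. No marker of these 5 lists was at the level of the control sets on all arrays. The part of these cells in the values of Dusp1, Arc and Ier2 was not tested.

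Ier2, a nuclear protein of early growth responses, was measured at 6.28, 5.93 and 6.33 at P3 and at 6.66, 6.37 and 6.36 at P14. The lowest value of P14 was 0.03 above the highest of P3, both of them from MNTB. The fitted difference was 0.28 ± 0.14 (95% interval -0.06 to 0.62, adjusted p = 0.152). Arc, Dusp1 and Ier2 were the 3 of 7 tested members whose ages did not overlap, whereas 53.6% of all tested genes showed no overlap.

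Among the transcription factors, Fos, the partner of Jun proteins in the AP-1 dimer, differed in direction between nuclei. It stood at 5.93, 7.32 and 7.54 at P3 and at 6.94, 7.12 and 6.83 at P14. The VCN value of P3 was the lowest of the 6, and at P14 the nuclei lay within 0.29 of one another. VCN differed between the ages by 1.01, LSO by -0.20 and MNTB by -0.71. The fit over the nuclei gave 0.03 ± 0.32 (95% interval -0.74 to 0.81, adjusted p = 0.946), and with the arrays centred on the medians of the tested genes -0.06. Without either VCN array it gave -0.45 (adjusted p = 0.0966 and 0.0971).

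Fosb, a second AP-1 subunit, had values of 2.68, 3.18 and 3.35 at P3 and of 3.38, 3.12 and 2.96 at P14. All 6 were at or below 4.42, the highest value of the unspiked control sets, so no level can be given. Junb, the Jun protein of AP-1 in this group, had 5.64, 5.33 and 5.55 at P3 and 5.64, 5.88 and 5.75 at P14. Its LSO value went from the lowest to the highest of the 6, while the VCN values were identical. The fitted difference of Junb was 0.25 ± 0.15 (95% interval -0.12 to 0.62, adjusted p = 0.230).

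Egr1, the zinc finger factor also known as Zif268, was measured at 7.85, 8.22 and 8.03 at P3 and at 8.0, 7.37 and 7.04 at P14. In LSO and MNTB the value of P14 was lower by more than the whole spread of P3, and in VCN it was not. VCN differed by 0.15, LSO by -0.85 and MNTB by -0.99. Over the nuclei Egr1 was at -0.57 ± 0.23 (95% interval -1.14 to 0.01), which did not pass (adjusted p = 0.104). Without either VCN array the difference was -0.92 and passed (adjusted p = 0.00506 and 0.00477), while without either LSO array it was -0.42 and without either MNTB array -0.35. That the difference of Egr1 depended on the nucleus could not be tested with 1 array per nucleus and age. The heat shock gene Hspa1a, a chaperone induced by stress on cells, had differences of 0.25, -0.92 and -1.27 in VCN, LSO and MNTB (fitted -0.65, adjusted p = 0.128). Hspa1b, of the same list but with a mean too low to be tested, had 0.11, -1.06 and -1.24. Hspa1a and Hspa1b were picked after their values were seen, and the tested genes of their list as a whole did not fall with age. Of the 14 tested genes of heat shock and tissue handling 4 rose and 0 fell, with a median of 0.10. Whether tissue handling had a part in the values of Egr1 was not tested.

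Egr3, a zinc finger factor of the same family, was nearly level, at 7.04, 7.04 and 7.14 at P3 and 7.03, 6.88 and 7.04 at P14. Its fitted difference was -0.09 ± 0.12 (95% interval -0.38 to 0.20, adjusted p = 0.573). For the probe set used, the interval leaves out a change of 0.5 log2 units in either direction. Its values spanned only 0.25 over the arrays, and those of VCN and LSO at P3 and of MNTB at P14 were all 7.044. Whether so flat a probe set follows the transcript was not tested. The second probe set of Egr3 had values of 2.92, 2.74 and 3.08 at P3 and of 3.57, 3.23 and 3.04 at P14, all below the highest value of the control sets (4.42).

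Nr4a1, an orphan nuclear receptor, had 5.46, 5.64 and 5.86 at P3 and 5.46, 5.40 and 5.38 at P14. Its mean difference of -0.24 was made up of 0.00, -0.25 and -0.48. Npas4, a factor that responds to calcium entry and acts on inhibitory synapses, had 4.20, 4.26 and 4.69 at P3 and 3.98, 3.95 and 4.20 at P14. All but the MNTB value of P3 were at or below the highest control value. With no filter on low values neither passed (adjusted p = 0.260 for Nr4a1 and 0.0637 for Npas4), and Fosb did not either (0.80).

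The identical values of Junb and of Nr4a1 in VCN at both ages are in the deposited data. Among the 12958 tested genes 14.7% had at least 2 arrays with the same deposited value, and 4.25% had the same value at both ages of a nucleus. Of the 10 members, 4 had at least 2 identical values (Junb, Nr4a1, Egr3 and Npas4).

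**Figure D3:**
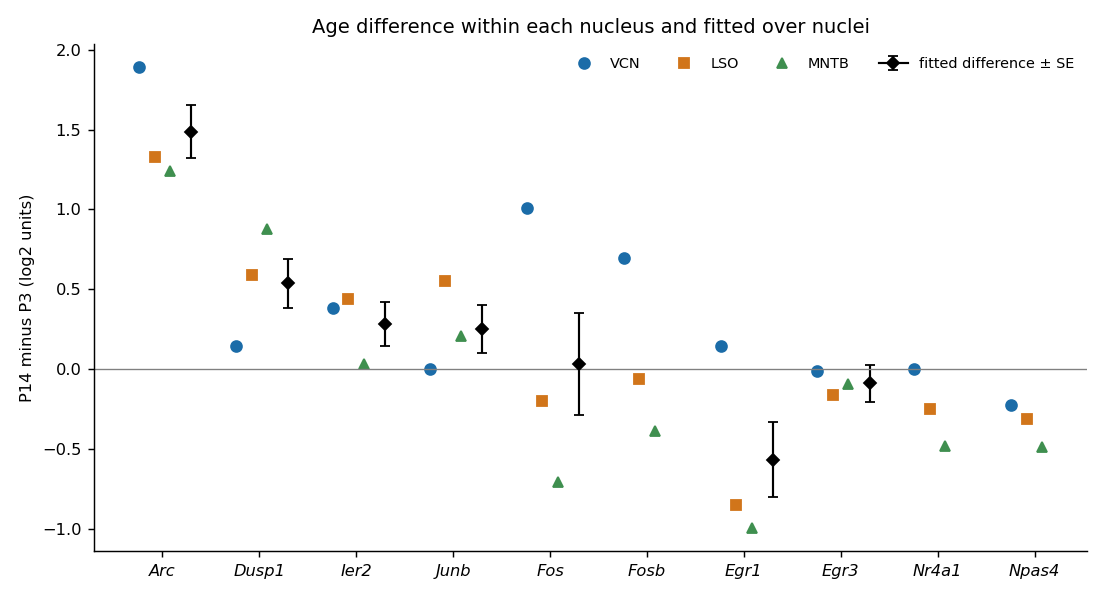
P14 minus P3 in log2 units for each of the 10 genes, within each nucleus (coloured points, 1 pair of arrays each) and as fitted over the nuclei (black diamonds with standard error, for the 7 tested genes only). Among the 7 tested genes the VCN point is above the other nuclei for Arc (1.89), Fos (1.01), Egr1 (0.15) and Egr3 (-0.01), below them for Dusp1 (0.15) and Junb (0.00), and between them for Ier2 (0.38); the points of Fosb and most of those of Npas4 are differences between values at the level of the control sets.

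Across the members the size of the age difference followed the nucleus in more than 1 way. For 3 of the 7 tested members (Arc, Fos and Egr1) it was highest in VCN, lower in LSO and lowest in MNTB, an order singled out after the values were seen. Over all tested genes 19.4% had the same order. Nr4a1, just under the filter, had it too, while Fosb and Npas4 are left out because their values were at or near the level of the control sets. Dusp1 had the opposite order. Of the 7 tested members 4 had the same sign in all 3 nuclei, against 67.9% of all tested genes. With 1 array at each point the neighbours in these orders could not be set against a replicate spread.

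The comparison between nuclei asks whether the level of these genes differed by nucleus with both ages in the model. None of the 7 tested members passed in any of the 3 contrasts in limma, while 0.602% of all genes passed for MNTB minus VCN, 0.162% for MNTB minus LSO and 0.37% for VCN minus LSO. At an unadjusted p under 0.05 there was 1 member in VCN minus LSO, which was Arc, and 0 in either of the other contrasts. Arc was higher in VCN than in LSO by 0.53 ± 0.20 without passing (adjusted p = 0.531). The differences of the 7 ranged from -0.43 to 0.75 for MNTB minus VCN (lowest adjusted p = 0.611), from -0.26 to 0.20 for MNTB minus LSO (0.933) and from -0.79 to 0.53 for VCN minus LSO (0.531). The widest in size were those of Fos, at 0.75 ± 0.39 for MNTB minus VCN and -0.79 ± 0.39 for VCN minus LSO. At P3 alone Fos in VCN was 1.39 below LSO and in MNTB was 1.61 above VCN, differences between single arrays.

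Genes with the most similar pattern over the 6 arrays were looked for among 3443 genes with a range of at least 1 log2 unit, for the 3 tested members with such a range. Arc was closest to Gadd45a, a stress-induced gene of growth arrest and DNA repair (Pearson r = 0.9969), and to Rapgef5, an exchange factor for Rap GTPases (0.9966). Its pattern was common, with 635 genes at r of at least 0.9. Egr1 was closest to Chst15 (0.9788), a sulfotransferase of chondroitin sulfate, and to Apba1 (0.9771), an adaptor protein of synapses, with 30 genes at that level. Fos had only 4, led by the cytochrome P450 gene Cyp1b1 (0.9561) and the membrane protein gene Tmem176a (0.9407). Cyp1b1 had 5.11, 7.17 and 7.32 at P3 and 7.06, 7.06 and 6.22 at P14, with the VCN value of P3 the lowest, as for Fos. All these points share the arrays, and the correlations are descriptions over 6 of them.

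Other immediate early transcription factors went both ways with age. Of 18 tested of 19 listed, 6 rose and 3 fell, with a median of 0.40, where 23.4% of all tested genes rose and 17.7% fell. Bhlhe40, a transcriptional repressor of the circadian clock, rose by 0.99 (adjusted p = 0.00965), with 1.53, 0.81 and 0.62 in the 3 nuclei. The Krüppel-like factor gene Klf4 rose by 0.86 (0.00571) and the clock gene Per1 by 0.71 (0.00629). The repressor gene Klf10 fell by 0.90 (0.00222), and Nr4a2, a relative of Nr4a1, fell by 0.63 (0.0208). Jund, an AP-1 subunit that is less dependent on activity, fell by 0.25 (0.0296). Bhlhe40, Klf4, Per1 and Klf10 passed with each array left out in turn, which takes each nucleus in turn out of the age difference. Nr4a2 did not without any LSO or MNTB array (highest adjusted p = 0.0934), and Jund passed in none of the 6 such fits (highest adjusted p = 0.170). Without either MNTB array 3 genes of the list rose and 1 fell.

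Among other immediate early effectors and feedback genes 7 of 18 tested rose and 4 fell, with a median of 0.15 (22 were listed). Over all tested genes the shares were 23.4% and 17.7%, so the falls were near the share of all genes. Gadd45a rose by 2.05 (adjusted p = 0.00111), with 2.62, 1.88 and 1.66 in the nuclei. Ccn2, a matrix protein also called CTGF, rose by 1.13 (0.00668), and Zfp36, which destabilises mRNA of early genes, rose by 1.12 (0.00138). Dusp4, a nuclear phosphatase for MAP kinases like Dusp1, fell by 1.96 (0.00115), with -2.09, -2.35 and -1.44 in the nuclei. The kinase genes Plk2 and Sik1 fell by 0.86 (0.00423) and 0.73 (0.00661). These 6 genes passed with each array left out in turn. Without either LSO array 4 genes of the list rose and 3 fell. The second probe set of Plk2 gave -0.11 and that of Sik1 -0.06.

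Late activity-regulated genes of neurons, which follow the early factors, gave 2 rises and 2 falls among 15 tested, with a median of -0.33, beside 23.4% and 17.7% over all tested genes. The perineuronal net gene Acan rose by 1.40 (adjusted p = 0.00128) and the Ras exchange factor gene Rasgrf1 by 1.35 (0.00069), whose probe sets ranged from -0.27 to 1.42. The pentraxin gene Nptx2, whose protein gathers AMPA receptors, fell by 1.15 (0.0498) and the growth factor gene Igf1 by 0.70 (0.0437). Nptx2 did not pass without any VCN or MNTB array (highest adjusted p = 0.168) or as the median over probe sets (-0.70, adjusted p = 0.0629), nor Igf1 without any LSO or MNTB array (0.194). Acan and Rasgrf1 passed in all 6 leave-out fits. Bdnf, a growth factor of active synapses and a target of Npas4, was at -0.33 and did not pass (0.111).

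Genes that carry the calcium signal to the nucleus fell in 9 of 16 tested cases and rose in none, with a median of -0.43 (17.7% of all tested genes fell). The calcium-activated adenylyl cyclase gene Adcy1 fell by 1.54 (adjusted p = 0.000901), the kinase gene Camk2a by 1.36 (0.00426) and Camk4, a nuclear kinase for CREB, by 1.23 (0.000613). All 3 passed with each array left out in turn. The 6 probe sets of Camk2a ranged from -1.36 to -0.34, with -0.64 for their median. When each gene was given the median over its probe sets, 6 fell and none rose, and with the arrays centred on the medians of the tested genes 12 fell. Of 6 neuronal markers 3 also fell, among them Syt1 by 1.03 and Rbfox3 by 1.12, and Snap25 rose by 0.28. The part of neuron number in the fall of the kinase genes was not tested.

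In the MAP kinase cascade 3 of 8 tested genes rose and none fell, with a median of 0.18, where 23.4% of all tested genes rose and 17.7% fell. The absence of falls depended on the probe set rule: with the median over each gene's probe sets 3 rose and 2 fell. Without either MNTB array 1 rose. Rps6ka5, a kinase for CREB and histone H3, rose by 0.76 (adjusted p = 0.0119), Map2k1, which activates ERK, by 0.67 (0.00298), and Araf by 0.32 (0.0267). Map2k1 passed with each array left out in turn. The median over the probe sets of Rps6ka5 was 1.24. Rps6ka5 and Araf did not pass without any LSO or MNTB array (highest adjusted p = 0.0679 and 0.143), and the probe sets of Araf ranged from -0.71 to 0.32. Of 16 transcription factors acting on immediate early promoters, 1 rose and 2 fell, with a median of 0.00, both below the shares of all tested genes. Elk4, a partner of the serum response factor, rose by 0.47 (0.0111; the median over probe sets gave 0.20, adjusted p = 0.242), the CREB coactivator gene Crtc1 fell by 0.69 (0.0332), and Arnt2, the partner of Npas4, fell by 0.69 (0.00957). Creb1 and Srf themselves were at 0.11 (0.489) and -0.08 (0.595). Elk4 and Crtc1 did not pass without either MNTB array (highest adjusted p = 0.0768 and 0.126), and Arnt2 passed in all 6 leave-out fits.

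Of 14 tested genes of heat shock and tissue handling, 4 rose and none fell, with a median of 0.10, which is near the 23.4% of all tested genes that rose. With no filter on low values 1 rose, and after another quantile normalization 2. The list averaged 10.22 to 10.35 at P3 and 10.32 to 10.52 at P14. Hspb1 rose by 0.95 (adjusted p = 0.0348), the metallothionein gene Mt2 by 0.78 (0.0431) and the chaperone gene Hsph1 by 0.30 (0.0198). None of the 4 passed in all 6 leave-out fits. Hspb1 was lost without any LSO or MNTB array (highest adjusted p = 0.0756), Mt2 without either LSO array (0.108) and Hsph1 without any VCN or MNTB array (0.126), while Ddit3, at 0.30, was lost in each (0.173).

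**Figure D4:**
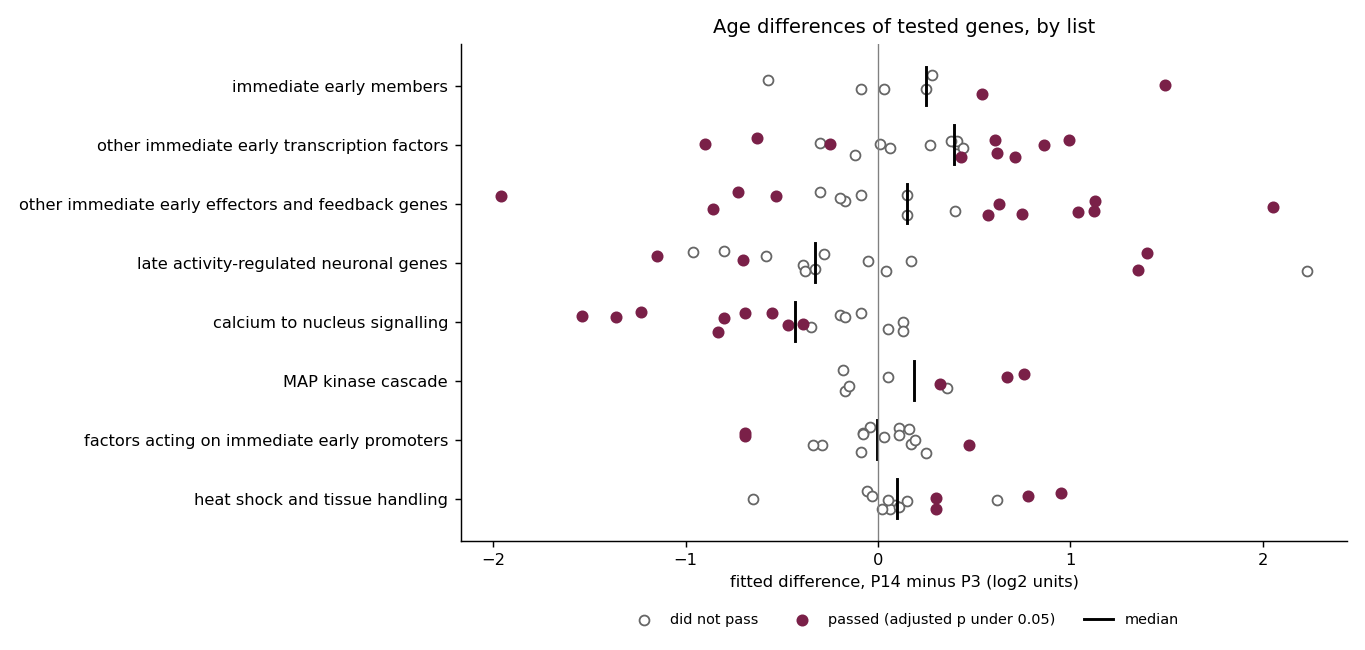
Fitted age differences (P14 minus P3, log2 units) of the tested genes in 8 lists, with 1 point per gene, filled where the adjusted p was under 0.05, and a black line at the median of each list; vertical scatter has no meaning. Calcium to nucleus genes that passed lie to the left of 0 (9 of 16), while the lists of immediate early genes hold points on both sides.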

How the data were processed

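The authors deposited log2 values for each probe set, summarised with RMA per the submitters' processing notes, with no version stated. Of 45101 probe sets 34945 named 1 gene, 932 several and 9160 none here, and 34741 of the former matched a RefSeq table. The members and all lists were chosen with earlier results of these data known. For each gene the probe set with the highest mean was used, and one whose name ends in _x_at was taken only where no other existed. The 12958 genes with a mean of at least 5.57 (40th percentile) entered limma (version 3.58.1, R version 4.3.3) in an additive model of age and nucleus. Variances were moderated with a trend on intensity, tests were two-sided, and p-values were adjusted over those genes (Benjamini-Hochberg). There were 2 residual and 3.95 prior degrees of freedom. Steps were tested on simulated data. All members were named, and from each other list the called genes with the largest differences, up to 3 in each direction. Hspa1a, Hspa1b, Bdnf, Creb1, Srf and the single markers were picked after their values were seen. Alternatives were the filter, the probe set rule, scaling, a floor of 4.47, the intensity trend, the nucleus term and each array left out. Some listed genes are not analysed here. No source used here names a batch.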

Additional observations from a re-analysis of the deposited data

Results flagged for a closer look

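The age difference of Fos had opposite signs in different nuclei, by more than 0.5 log2 units in each. It was 1.01 in VCN and -0.71 in MNTB, from 1 array per nucleus and age. This difference between nuclei was not tested. No other member differed in this way.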

How the results depend on the processing

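Arc passed under each alternative that tested it, with differences of 1.28 to 1.61, and was not tested with the filter at the 60th percentile. The number of members called for age, 2 in the analysis as reported, was 1 with that filter, 1 with the arrays centred on the medians of the tested genes (a setting chosen after seeing the data) and 1 to 3 with 1 array left out, the third being Egr1 without a VCN array. That centring turned the balance of called genes from 57% higher to 44.7% higher (2432 higher and 3004 lower), lowered Dusp1 to 0.44 and turned Fos to -0.061. Among the age differences of members, 62 of 64 values under other settings kept their sign and their side of the threshold. With an array left out 34 of 42 did. The 2 fits without an array of the same nucleus give the same age difference, so the 42 values are not separate checks. Leaving out 1 array gave 3142 to 4710 genes called for age, 17 to 215 for MNTB minus VCN, 4 to 99 for MNTB minus LSO and 4 to 159 for VCN minus LSO. With the filter at the 60th percentile 51 genes passed for MNTB minus VCN and 29 for VCN minus LSO, where fewer genes were tested. Leave-out values for the age difference of Fos ran from -0.45 to 0.40.

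For differences between nuclei, none of which passed, leave-out values changed sign as follows. For MNTB minus VCN they ran from -0.18 to 0.20 for Junb, -0.93 to 0.14 for Egr1, -0.0030 to 0.11 for Egr3, -0.38 to 0.20 for Dusp1 and -0.31 to 0.064 for Ier2. For MNTB minus LSO they ran from -0.088 to 0.28 for Arc, -0.59 to 0.52 for Fos, -0.18 to 0.27 for Junb, -0.58 to 0.064 for Egr1 and -0.050 to 0.46 for Dusp1. For VCN minus LSO they ran from -0.19 to 0.26 for Junb and -0.40 to 0.67 for Egr1. Fos in MNTB minus LSO was 0.019 after another quantile normalization and 0.023 with the centring on tested genes. The cause of these changes was not tested. The nucleus term pairs the arrays of a nucleus across the ages, and without it 5074 genes and 2 members were called for age.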
